A study of Mus musculus with 36 samples.

Results

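Chromatin accessibility was examined at 10 genes of the T lineage and the Notch pathway in a mouse pre-B cell line. The genes were Notch1, Hes1, Dtx1, Ptcra, Gata3, Tcf7, Bcl11b, Cd4, Cd8a and Zap70. A member was any DNase I hypersensitive site (DHS, a stretch of open chromatin that the enzyme DNase I cuts readily) overlapping the body of one of these genes (GENCODE vM21) extended by 10 kb on each side. The rule used position alone and no measured value. It found 39 of the 52788 DHS in the table, and 0 of them lay in the windows of 2 genes.

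The libraries came from B3, a mouse pre-B line, and each of the 12 groups held 3 libraries (36 in all). The Ikaros line carried an MSCV retroviral vector for HA-tagged wild type Ikaros fused to ERt2, the hormone-binding domain of the estrogen receptor, with IRES-GFP. The control line carried the same vector without Ikaros. Both lines were GFP-sorted cells of one parental line, and the methods do not state how many transductions each line came from. A difference between the lines need not be a response to the drug. Cells of both lines were collected at 0, 2, 6, 12, 18 and 24 h, and the labels name 4-hydroxytamoxifen (4-OHT), which lets the fusion protein into the nucleus, at 0.5 uM for every sample, whereas the methods of the study state that 0 h cells received none and were obtained separately. The label of each library gives a replicate number (4, 5 or 6), which stands for a batch of the experiment (11, 12 or 13). RNA was not analysed here.

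Notch receptors are cut upon binding a Delta or Jagged ligand, and the released intracellular part joins the DNA-binding protein RBPJ and Mastermind-like coactivators at target genes such as Hes1, Dtx1 and Ptcra. In thymocyte progenitors this pathway starts the T-cell programme, in which Tcf7, Gata3 and Bcl11b encode transcription factors, while Cd4, Cd8a and Zap70 encode coreceptors and a kinase of T-cell receptor signalling. Ikaros recognises DNA with the letters TGGGAA, which the consensus of RBPJ also holds, and Ikaros is known as a repressor of Notch targets in T-cell precursors.

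The DNA of the DHS on which the results below turn is shown so that the letters can be set beside the values. All are given 5′ to 3′ on the plus strand of GRCm38 (the sequence also called mm10, here from RefSeq), in lower case, with TGGGAA or TGTGGT (the Runx core) in capitals where either occurs on either strand. Of the stretches below, only the intron DHS 20058 bp into Notch1 and the Zap70 DHS hold such a match. For the former the first 300 bases are given. The first 2 stretches are Notch1 DHS that were less accessible in the Ikaros line, and the DHS at +54187 lies in an intron of the neighbouring gene 0610009E02Rik.
Notch1 window at +54187, chr2:26449570-26449700: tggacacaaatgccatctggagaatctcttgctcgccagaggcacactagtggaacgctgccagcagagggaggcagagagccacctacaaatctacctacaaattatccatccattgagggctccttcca
Notch1 at -3892, chr2:26507634-26507794: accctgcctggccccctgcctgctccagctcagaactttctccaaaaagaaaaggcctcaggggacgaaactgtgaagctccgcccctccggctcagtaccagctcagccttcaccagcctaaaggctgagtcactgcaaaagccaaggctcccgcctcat
Notch1 intron at +20058, chr2:26483502-26483801: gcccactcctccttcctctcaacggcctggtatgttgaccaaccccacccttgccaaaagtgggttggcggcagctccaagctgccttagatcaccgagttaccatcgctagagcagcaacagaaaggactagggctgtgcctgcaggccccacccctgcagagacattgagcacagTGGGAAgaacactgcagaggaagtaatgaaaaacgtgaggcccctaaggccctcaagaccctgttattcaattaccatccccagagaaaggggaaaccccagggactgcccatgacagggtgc
Dtx1 intron at +5253, chr5:120706609-120706739: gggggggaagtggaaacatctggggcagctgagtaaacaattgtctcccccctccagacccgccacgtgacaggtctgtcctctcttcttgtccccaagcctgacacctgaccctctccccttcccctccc
Tcf7 upstream at -3599, chr11:52286501-52286725: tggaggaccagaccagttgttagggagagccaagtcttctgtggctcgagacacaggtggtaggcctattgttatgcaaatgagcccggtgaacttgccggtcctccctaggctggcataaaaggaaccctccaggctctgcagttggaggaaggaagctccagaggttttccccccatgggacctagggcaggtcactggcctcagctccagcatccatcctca
Zap70 intron at +5626, chr1:36767346-36767502: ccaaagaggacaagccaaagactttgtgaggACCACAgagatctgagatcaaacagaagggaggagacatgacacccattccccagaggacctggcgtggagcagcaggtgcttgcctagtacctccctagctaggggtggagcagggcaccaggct

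A RefSeq promoter (GRCm38.p6) was at hand for 8 of the 10 genes. The Notch1 promoter is shown because a DHS covered it. Its 250 bases before the start lie on the minus strand, at chr2:26503823-26504072, and hold neither motif.
Notch1 promoter: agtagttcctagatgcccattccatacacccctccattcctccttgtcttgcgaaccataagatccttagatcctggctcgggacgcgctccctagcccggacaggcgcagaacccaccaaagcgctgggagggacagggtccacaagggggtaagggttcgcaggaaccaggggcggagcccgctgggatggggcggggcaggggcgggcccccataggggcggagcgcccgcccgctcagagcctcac

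Most members lay away from promoters, as did most DHS, of which 25.9% were at promoters. Of the 39 DHS, 20 lay in introns, 11 at promoters (1000 bp or less from the transcription start site, TSS, of any gene), 6 between genes and 2 in exons. Their median width was 167 bp, against 500 bp over all DHS. Signed distances in the text run from the nearest TSS of the gene in the basic annotation to the centre of the DHS, and are negative upstream. The count was 9 at Notch1, 7 each at Dtx1 and Tcf7, 4 each at Hes1 and Zap70, 3 at Ptcra, 2 each at Gata3 and Cd4, 1 at Bcl11b and 0 at Cd8a. Within the gene bodies alone, Ptcra, Cd4 and Cd8a had 0 DHS, whereas windows of 50 kb held 8 at Ptcra, 8 at Cd4 and 3 at Cd8a. The 3 DHS in the Ptcra window belonged to the promoters of Cnpy3 and 2310039H08Rik, and those in the Cd4 window lay in an exon of Gpr162 and 3002 bp upstream of Cd4.

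**Figure D1:**
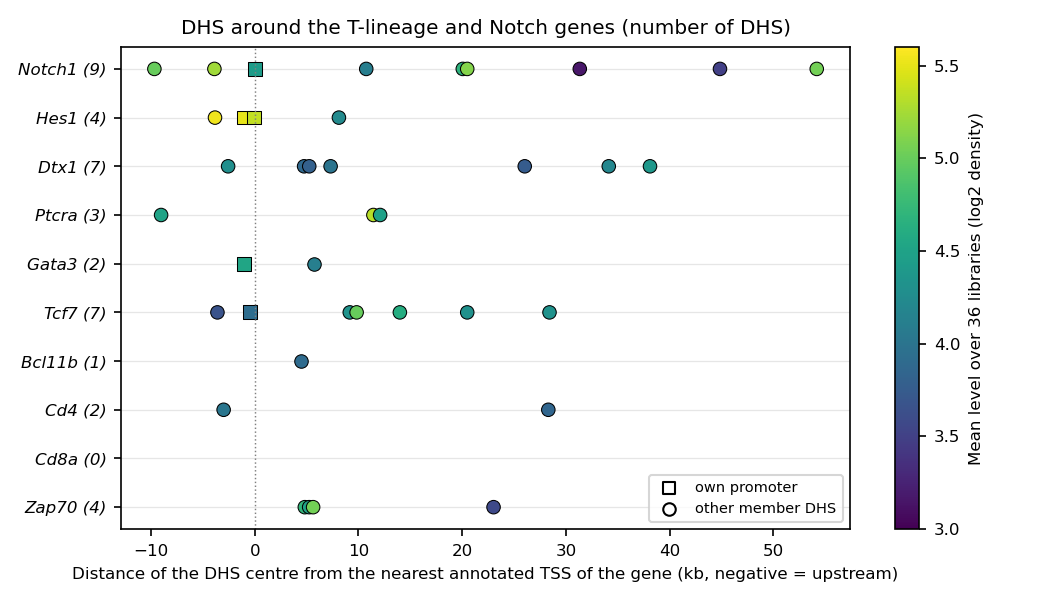
Each point is a member DHS at the distance of its centre from the nearest TSS of its gene (x axis, kb), with 1 row for each gene and the number of its DHS in brackets. Colour gives the mean level over 36 libraries (log2 density), from 3.15 to 5.55, and squares mark the 5 DHS at the genes' own promoters. Cd8a has no point.

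Levels are log2 of normalised read density, a scale that divides by width and can be compared between DHS. Member levels ran from 3.15 to 5.55 in the mean of 36 libraries, and 29 of 39 lay above the median of all DHS (3.95). The Notch target Hes1 held the most accessible member, an intergenic DHS at -3835 with a mean level of 5.55, and its promoter DHS at -1023 (5.50) came next. These neighbours in the order did not differ beyond their spread, since the SD of the control libraries from 2 to 24 h was 0.25 at the former and 0.29 at the latter. The least accessible member, 3.15, lay 31339 bp into Notch1. A bulk library does not tell fewer cells with an open site from less opening in each cell.

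DHS at their own promoters, within 1000 bp of a TSS, were present at 4 of the 10 genes (40%), beside 46.6% of the 21924 protein-coding genes. These were Notch1, Hes1, Gata3 and Tcf7, with 5 DHS in all. Among promoter DHS genome-wide, the level of the Hes1 DHS at -1023 lay at the 88.8th percentile and that at -81 at the 84.6th. The Gata3 promoter DHS at -1083 (chr2:9879404-9879962) lay at the 48.6th and the Notch1 promoter DHS at -22 (chr2:26503530-26504158) at the 43.9th. The Tcf7 promoter DHS at -487 (chr11:52283436-52283566) lay at the 21.5th. The Notch1 DHS covers the TSS, whereas those of Gata3 and Tcf7 lie upstream without reaching it. These DHS are meant where the text names the promoter of Gata3, Notch1 or Tcf7 with accessibility values. Dtx1, Ptcra, Bcl11b, Cd4, Cd8a and Zap70 had no DHS within 1000 bp of a TSS. Promoter DHS were present at 27 of 39 other Notch pathway genes, among them Rbpj, Notch2 and Adam10, and at 9 of 28 other T-lineage genes. Cd3d, Cd3e, Cd3g and Cd247, which encode the CD3 chains, had none. As a check of the pre-B label, 10 of 12 B-lineage genes had one, as did 2 of 9 myeloid and erythroid genes and neither Myog nor Myod1.

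To ask whether the lines differed before the drug, Ikaros was compared with control at 0 h with limma over all 36 libraries. At an adjusted p under 0.05, 4 of the 39 members passed, all more accessible in the Ikaros line. Over all DHS, 12.9% passed, 7.81% higher and 5.04% lower. The members' share (10.3%) thus stood near the background. The 4 were promoter DHS of Notch1, Hes1 and Gata3 and an intron DHS of Dtx1, a Notch-induced ubiquitin ligase.

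The Hes1 DHS at -1023 (chr16:30064252-30064382) read 5.16, 4.89 and 5.03 in the 3 control libraries at 0 h and 5.61, 6.19 and 6.14 in the 3 Ikaros libraries (replicates 4, 5 and 6). All Ikaros libraries were above all control libraries. The difference was 0.95 ± 0.20 on the log2 scale (SE, adjusted p = 0.0025). At Notch1, the promoter read 4.09, 4.70 and 4.16 in control and 5.34, 4.75 and 4.84 in Ikaros cells. The groups did not overlap, although control replicate 5 came close to the lowest Ikaros library. The difference was 0.66 ± 0.19 (SE, adjusted p = 0.025), and it missed the threshold without control replicate 4 (0.55, adjusted p = 0.11), control replicate 6 (0.58, adjusted p = 0.12) or Ikaros replicate 4 (0.48, adjusted p = 0.15). The Gata3 promoter read 4.52, 4.57 and 3.35 in control and 4.91, 4.91 and 4.64 in Ikaros cells, a difference of 0.68 ± 0.21 (SE, adjusted p = 0.032). Control replicate 6 was far below the other control libraries there, and without it the difference was 0.28 (adjusted p = 0.36). The call was also lost without Ikaros replicate 4 (0.63, adjusted p = 0.092) or 5 (0.63, adjusted p = 0.084).

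The Dtx1 intron DHS at +5253 showed the widest gap of the 39 at 0 h. Control libraries read 3.22, 3.42 and 2.49 and Ikaros libraries 4.04, 5.48 and 3.94. Again no library of one line reached the other. The difference was 1.44 ± 0.31 (SE, adjusted p = 0.0038). It was 0.94 (adjusted p = 0.035) without Ikaros replicate 5, the library at 5.48, and 1.44 (adjusted p = 0.051) without replicate 6 in all groups. Other own promoters did not pass. The Hes1 DHS at -81 (chr16:30064969-30065549), which covers the TSS, read 5.13, 5.05 and 5.20 in control and 5.79, 5.33 and 5.68 in Ikaros cells (0.48 ± 0.21 SE, adjusted p = 0.13). The Tcf7 promoter read 3.57, 4.65 and 4.24 in control and 5.33, 4.47 and 4.14 in Ikaros cells, with overlapping groups (0.50 ± 0.37 SE, adjusted p = 0.40).

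Promoter DHS as a class stood higher in the Ikaros line at 0 h. Their median difference was 0.34 over 13657 DHS, of which 26.0% passed, whereas the other 39131 DHS had a median of -0.19. All 5 own-promoter DHS lay above that median (0.48 to 0.95), and 3 of them passed. The 28 members outside promoters had a median of -0.10, with 1 call. Once trends with level, width and GC content were removed by loess, the differences were 0.10 at the Hes1 DHS at -1023 (adjusted p = 0.86), -0.02 at the Notch1 promoter (adjusted p = 0.97) and 0.42 at the Gata3 promoter (adjusted p = 0.21). The Dtx1 intron DHS kept its call. Without control replicate 6 of 0 h, 2 of the 39 passed, and calls over all DHS, 6787 with all libraries, fell too. With only the 0 h libraries in the fit, 0 of the 39 passed, and 2 of all 52788 DHS did.

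**Figure D2:**
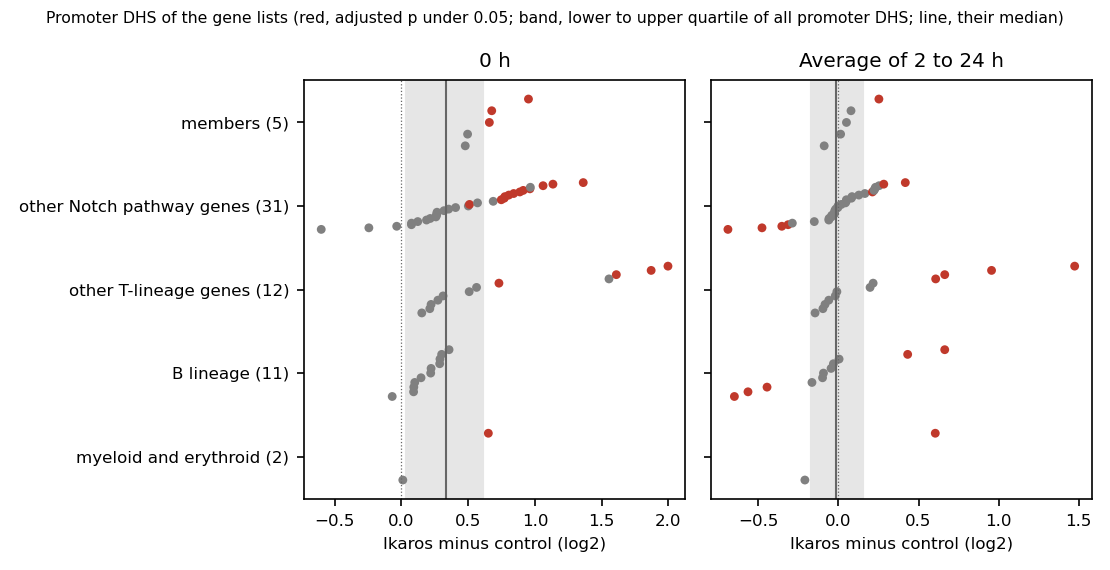
Difference of Ikaros minus control (x axes, log2) at promoter DHS of the gene lists, at 0 h (left) and averaged over 2 to 24 h (right); numbers of DHS are in brackets. Red points passed an adjusted p of 0.05, the band spans the lower to the upper quartile of all promoter DHS (0.03 to 0.61 left, -0.17 to 0.15 right) and the line is their median (0.34 and -0.01). At 0 h the 5 members lie from 0.48 to 0.95, and in the average from -0.09 to 0.25.

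From 2 h on, the lines were compared at each time and in the equal-weight average of the 5 times. At each single time 0 of 39 members passed. Of all DHS, 0.195%, 0.578%, 1.31%, 0.699% and 1.33% passed, in the order of the 5 times. At an unadjusted p under 0.05 limma counted 3, 5, 4, 4 and 6 members. Of all 52788 DHS it counted 5294, 7263, 8317, 6906 and 7740 at that threshold. The average passed at 12 of 39 members, 4 higher and 8 lower in the Ikaros line. Over all DHS 29.5% passed, 17.1% higher and 12.4% lower. The members' total (30.8%) was close to that background. By direction, 26 of 39 members lay below 0, beside 23492 of all 52788 DHS. The members had a median of -0.11, beside a median of 0.04 over all DHS. The members' median was -0.045 with quantile normalisation and -0.047 with trends removed. At all 5 times the Ikaros mean was below the control mean at 15 of 39 members and above it at 4 of 39, beside 19.3% and 22.2% of all DHS. All times of a line come from the same cells and batches, and the deposited group means span 6 of 11 possible dimensions, so that the 15 libraries of a line are not independent. With replicate 5 left out of all groups 5 members passed, and with replicate 6 left out 4 did. Calls over all DHS, 15589 with all libraries, fell in both of these fits too, so the loss was not confined to the members. Leaving one replicate number out of all groups ended the call at 10 of the 12 in at least one case, and 2, Notch1 +54187 and Dtx1 +5253, kept it.

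**Figure D3:**
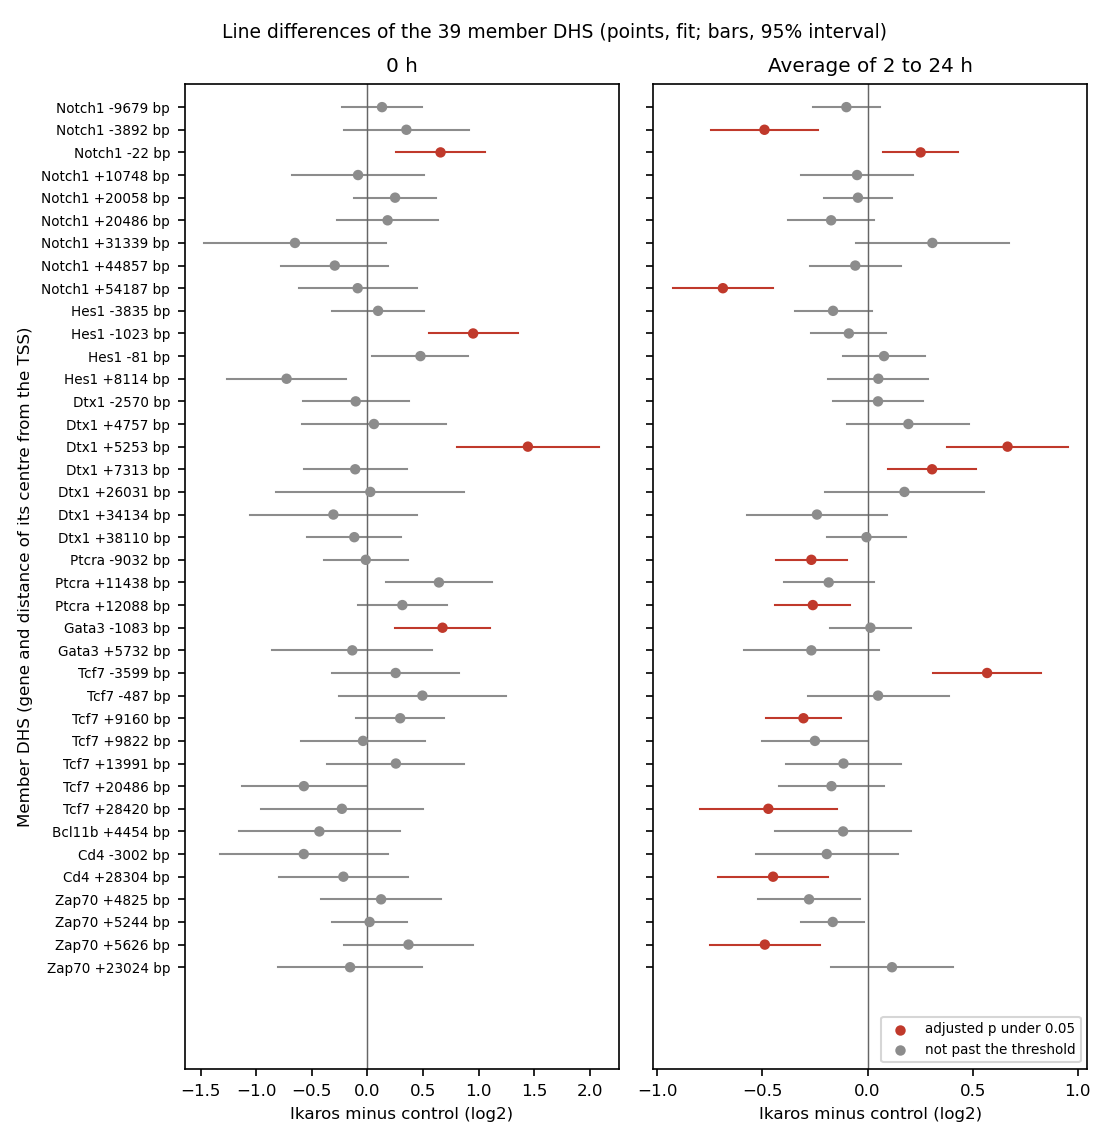
Difference of Ikaros minus control (x axes, log2) at each of the 39 member DHS (rows, named by gene and distance from the TSS), at 0 h (left) and averaged over 2 to 24 h (right). Points are fitted differences, bars their 95% limma intervals, and red marks an adjusted p under 0.05. The 4 red points at 0 h lie between 0.66 and 1.44, and the 12 in the average between -0.69 and 0.67.

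The window of Notch1, the receptor gene, held DHS that differed in both directions. The DHS at +54187, downstream of the gene body, was the member with the smallest p in the average. From 2 to 24 h the control libraries ran from 4.83 through a median of 5.47 to 5.95, and the Ikaros libraries from 4.28 through 4.66 to 5.19 (15 libraries each). Of the Ikaros libraries, 10 lay below the lowest control library and all 15 below the control median. The average difference was -0.69 ± 0.12 (SE, adjusted p = 6.2e-05), and the differences at 2, 6, 12, 18 and 24 h were -0.68, -0.54, -0.70, -0.78 and -0.74. At 0 h the same DHS read 4.86, 4.75 and 5.23 in control and 4.87, 4.76 and 4.95 in Ikaros cells, with overlapping groups (-0.09 ± 0.26 SE, adjusted p = 0.86). It kept its call under all 40 alternatives run on it.

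The Notch1 DHS at -3892 lies upstream of the TSS of the basic annotation but in an intron within the gene body. It ran from 4.93 through 5.40 to 6.08 in control and from 4.23 through 4.98 to 5.32 in Ikaros libraries. It was lower in the Ikaros line by an average of -0.49 ± 0.12 (SE, adjusted p = 0.0035), and all 15 Ikaros libraries lay below the control median. Without replicate 6 in all groups the difference was -0.27 (adjusted p = 0.12). In the 0 h libraries the Ikaros line was the higher, with 5.11, 5.25 and 4.77 in control and 5.43, 5.44 and 5.33 in Ikaros cells, although that difference did not pass (0.35 ± 0.28 SE, adjusted p = 0.43). Neither did its change from 0 to 24 h (-0.99 ± 0.39 SE, adjusted p = 0.11). The Notch1 promoter, by contrast, ran from 3.92 through 4.26 to 4.55 in control and from 4.15 through 4.51 to 4.88 in Ikaros libraries. The lines overlapped, and the average difference of 0.25 ± 0.09 (SE, adjusted p = 0.029) was lost in 9 of 40 alternatives, among them leaving out a single library (Control 24h replicate 6, Ikaros 2h, 12h or 24h replicate 5, or Ikaros 6h replicate 6, with differences of 0.22 to 0.23 and adjusted p of 0.051 to 0.057). The other 6 Notch1 DHS did not pass, and the intron DHS at +20058, which holds TGGGAA, averaged -0.05 ± 0.08 (SE).

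Over the 36 libraries, the promoter DHS of protein-coding genes most like the Notch1 DHS at +54187 were those of Ctdsp1 (Pearson r = 0.79), Slc3a2 (r = 0.73) and Akt1 (r = 0.73), of 11581 compared. The libraries share lines, batches and the correction of the table, so that these r are a description only.

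**Figure D4:**
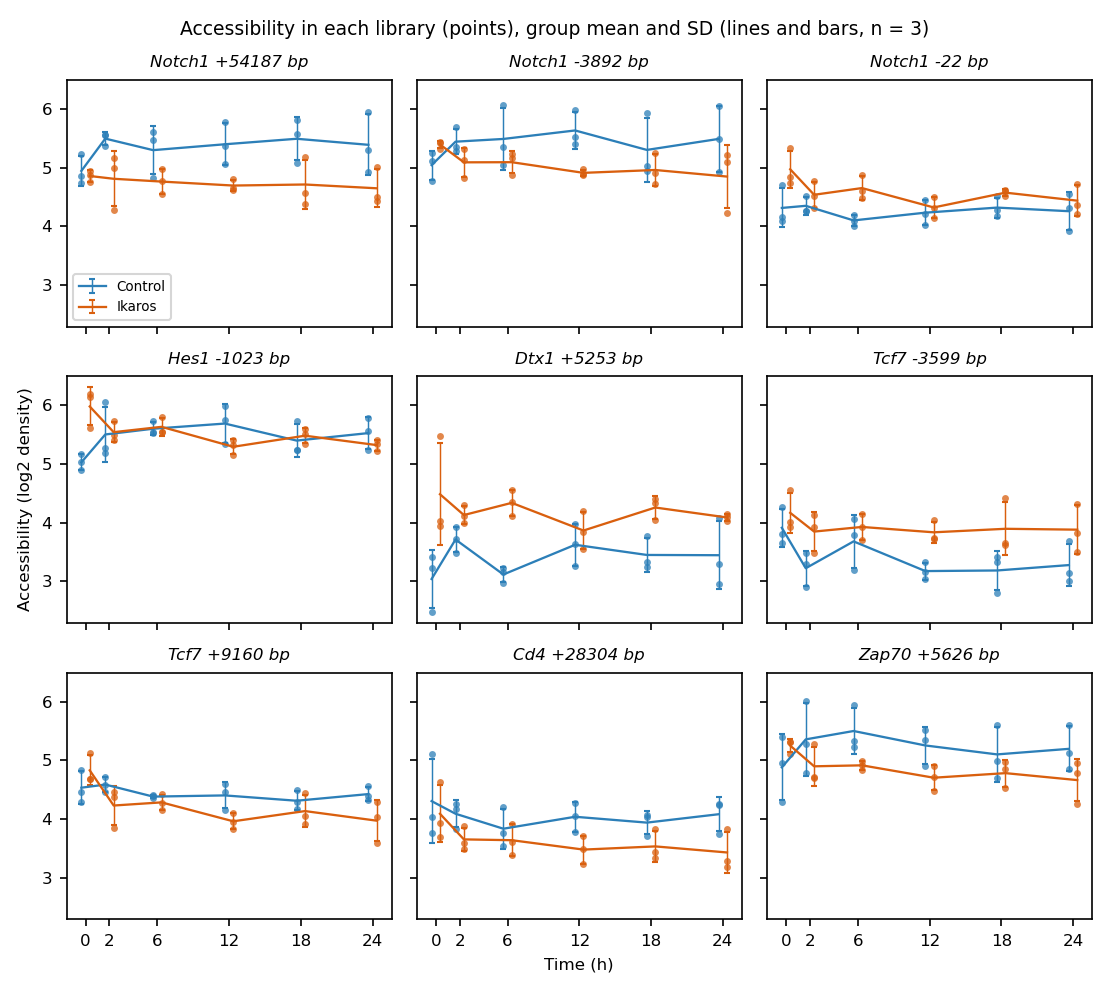
Accessibility (y axes, log2 density) against time (x axes, h) at 9 member DHS chosen after their values were seen. Points are single libraries, lines join group means and bars are SD (n = 3). From 2 h on the Ikaros means lie below control at Notch1 +54187, Notch1 -3892, Tcf7 +9160, Cd4 +28304 and Zap70 +5626 and above it at Notch1 -22, Dtx1 +5253 and Tcf7 -3599, while at Hes1 -1023 the lines are apart at 0 h (a difference of 0.95) and near each other afterwards (-0.40 to 0.08).

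Hes1, which encodes a repressor of the bHLH family and is a direct Notch target, had 0 of 4 DHS called in the average. The DHS at -1023 ran from 5.19 through 5.55 to 6.05 in control and from 5.15 through 5.41 to 5.81 in Ikaros libraries. The lines overlapped, and the average difference was -0.09 ± 0.09 (SE, adjusted p = 0.47, 95% interval -0.27 to 0.09). At the TSS the DHS at -81 ran from 4.76 through 5.33 to 5.70 in control and from 5.07 through 5.49 to 5.62 in Ikaros libraries (0.08 ± 0.09 SE, adjusted p = 0.57). With quantile normalisation the latter passed as higher in the Ikaros line (0.25, adjusted p = 0.017).

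The Hes1 DHS at -1023 was also the 1 member whose line difference changed from 0 to 24 h (-1.16 ± 0.28 SE, adjusted p = 0.018). Of all DHS 6.26% passed that test, 3.4% as a fall. At 24 h its 3 control libraries averaged 5.53 ± 0.27 and its 3 Ikaros libraries 5.32 ± 0.09 (SD), with overlapping groups, so that the change rests on the 0 h libraries. It was -1.03 (adjusted p = 0.052) without Control 24h replicate 4, -0.19 (adjusted p = 0.83) once trends with level, width and GC content were removed, and -0.75 (adjusted p = 0.12) with quantile normalisation. The test passed at 2 members without Control 0h replicate 4 and at 3 without replicate 5 of that group. Calls over all DHS, 3302 with all libraries, fell in the former fit and rose in the latter. All 11 members of the promoter class had a change below 0, as did most promoter DHS (median -0.42). Tests of the whole time course passed at 0 of 39 members: the interaction of line and time (1.1% of all DHS), change over time in the Ikaros line (2.29%) and change over time in the control line (0.148%). At an unadjusted p under 0.05 limma counted 2, 3 and 3 members, beside 7595, 6693 and 6647 of all 52788 DHS. For the interaction 1 member passed when any of Control 2h replicates 4, 5 and 6 or Control 12h replicate 4 was left out, and for the Ikaros line 1 passed without Ikaros 2h replicate 4, 18h replicate 6 or 24h replicate 6.

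Dtx1 had 2 of 7 DHS called in the average, both introns and both higher in the Ikaros line. At +5253 the control libraries ran from 2.95 through 3.33 to 4.09 and the Ikaros libraries from 3.56 through 4.11 to 4.56. All 15 Ikaros libraries were above the control median, and 10 were above the highest control library. The average difference of 0.67 ± 0.14 (SE, adjusted p = 7.1e-04) kept its call under all 40 alternatives. The line difference was already present at 0 h, and its change to 24 h did not pass (-0.80 ± 0.44 SE, adjusted p = 0.26). The DHS at +7313 (chr5:120704364-120704864) ran from 3.32 through 3.83 to 4.48 in control and from 3.87 through 4.11 to 4.54 in Ikaros libraries (0.31 ± 0.10 SE, adjusted p = 0.023). Leaving any of replicates 4, 5 and 6 out of all groups ended this call (adjusted p = 0.13, 0.081 and 0.11). At 0 h it read 3.89, 3.92 and 4.16 in control and 3.95, 4.02 and 3.68 in Ikaros cells, without a call. The most accessible DHS of the window, at +38110 in an intron of Rasal1, did not differ beyond its error (-0.01 ± 0.09 SE, 95% interval -0.19 to 0.18).

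At Ptcra, which encodes the pre-T-cell receptor alpha chain, the window held promoters of neighbouring genes only. All 3 lay below 0 at each of the 5 times, and 2 passed. The Cnpy3 promoter DHS at +12088 (chr17:46751342-46751907) ran from 4.20 through 4.61 to 4.87 in control and from 4.01 through 4.37 to 4.57 in Ikaros libraries (-0.26 ± 0.09 SE, adjusted p = 0.024). The 2310039H08Rik promoter DHS at -9032 (chr17:46772454-46773034) ran from 4.23 through 4.60 to 5.15 and from 4.12 through 4.38 to 4.60 (-0.27 ± 0.08 SE, adjusted p = 0.015). The lines overlapped at both, and both calls were lost with quantile normalisation (adjusted p = 0.11 and 0.083), with trends removed (0.13 and 0.055) and without replicate 5 (0.15 and 0.27) or replicate 6 (0.19 and 0.054) in all groups. Without replicate 5 the difference at -9032 was -0.17. The other Cnpy3 promoter DHS, at +11438, was the most accessible of the window (mean level 5.32) and did not pass (-0.18 ± 0.10 SE, adjusted p = 0.19).

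Tcf7, which encodes TCF-1, an early Notch-induced factor of T-cell specification, had 1 DHS called higher and 2 called lower of 7. Its upstream DHS at -3599 ran from 2.81 through 3.30 to 4.07 in control and from 3.49 through 3.82 to 4.42 in Ikaros libraries. All 15 Ikaros libraries stood above the control median (0.57 ± 0.13 SE, adjusted p = 0.0011). Without replicate 6 in all groups the call was lost (adjusted p = 0.076). At 0 h its libraries overlapped, with 3.66, 3.81 and 4.27 in control and 4.56, 3.93 and 4.01 in Ikaros cells.

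Both intron DHS that passed inside the gene were lower in the Ikaros line. The intron DHS at +9160 (chr11:52273161-52273661) ran from 4.16 through 4.40 to 4.71 in control and from 3.59 through 4.10 to 4.46 in Ikaros libraries, of which 8 lay below the lowest control library (-0.31 ± 0.09 SE, adjusted p = 0.0088). That call was lost without replicate 4 or replicate 5 in all groups. The intron DHS at +28420 (chr11:52254080-52254222), which also lies in Gm26551, had wider control values, from 3.31 through 4.59 to 5.49, beside 3.47, 4.15 and 4.66 in the Ikaros line (-0.47 ± 0.16 SE, adjusted p = 0.026). Its call was lost without Control 6h or 18h replicate 5 or Ikaros 12h replicate 6 (-0.39 to -0.41, adjusted p of 0.051 to 0.053). Without replicate 5 in all groups it was -0.28 (adjusted p = 0.30). Both intron calls were lost once trends with level, width and GC content were removed (-0.15 and -0.36, adjusted p = 0.22 and 0.085). The promoter DHS at -487 was the most variable of the own promoters, from 3.02 through 3.75 to 4.96 in control and from 3.28 through 3.87 to 4.27 in Ikaros libraries (0.05 ± 0.16 SE, 95% interval -0.29 to 0.39). The strongest intron DHS, at +9822 (mean level 4.99), averaged -0.25 ± 0.12 (SE, adjusted p = 0.12).

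Gata3 and Bcl11b, which act after Tcf7 in T-cell specification and commitment, had no DHS called in the average. The Gata3 promoter ran from 4.13 through 4.53 to 4.94 in control and from 4.20 through 4.52 to 4.79 in Ikaros libraries. The average difference was 0.01 ± 0.09 (SE, 95% interval -0.18 to 0.21), beside 0.68 at 0 h, and the change from 0 to 24 h did not pass (-0.67 ± 0.30 SE, adjusted p = 0.16). The single Bcl11b DHS, an intron site at +4454 (chr12:107998895-107999025), ran from 3.10 through 3.96 to 4.64 in control and from 3.29 through 3.71 to 4.26 in Ikaros libraries (-0.12 ± 0.16 SE, adjusted p = 0.61).

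Of the signalling and coreceptor genes, Zap70 and Cd4 each had 1 DHS called lower in the Ikaros line. Zap70 encodes the kinase that binds the phosphorylated T-cell receptor complex. Its intron DHS at +5626 ran from 4.70 through 5.27 to 6.02 in control and from 4.26 through 4.84 to 5.28 in Ikaros libraries (-0.49 ± 0.13 SE, adjusted p = 0.0048). Without replicate 6 in all groups this call was lost (adjusted p = 0.075). Of the Ikaros libraries 14 of 15 lay below the control median, and the Ikaros mean was the lower at each of the 5 times (-0.46, -0.58, -0.55, -0.32 and -0.53). At 0 h it read 5.40, 4.28 and 4.95 in control and 5.32, 5.32 and 5.12 in Ikaros cells, so the groups overlapped.

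A pair of further DHS lay just before it within Zap70 and are given here after their values were seen. That at +4825 (chr1:36766564-36766682) ran from 4.22 through 4.84 to 5.40 in control and from 4.22 through 4.58 to 5.09 in Ikaros libraries (-0.28 ± 0.12 SE, adjusted p = 0.075). That at +5244 (chr1:36766783-36767300) ran from 4.18 through 4.65 to 4.80 and from 4.13 through 4.42 to 4.63 (-0.17 ± 0.07 SE, adjusted p = 0.090). Both are classed as promoter DHS of the pseudogene model Gm18828, and neither passed. The last DHS of the window, downstream of Zap70 at +23024, averaged 0.12 ± 0.14 (SE, adjusted p = 0.57).

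In the Cd4 window the DHS at +28304, in an exon of Gpr162 (chr6:124859666-124860168), ran from 3.53 through 4.06 to 4.28 in control and from 3.18 through 3.49 to 3.92 in Ikaros libraries (-0.45 ± 0.13 SE, adjusted p = 0.0087). All 15 Ikaros libraries lay below the control median and 8 below the lowest control library. The call was lost without replicate 4 or replicate 5 in all groups (adjusted p up to 0.078). The DHS at -3002, the nearest to Cd4 itself, averaged -0.19 ± 0.17 (SE, adjusted p = 0.40).

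The 17 members outside the rule for description passed no test. Their average differences ran from -0.28 to 0.31 and their 0 h differences from -0.73 to 0.26. The lowest 0 h difference was at the narrow Hes1 DHS at +8114 (chr16:30073418-30073491), which read 4.75, 3.85 and 4.98 in control and 3.78, 3.81 and 3.81 in Ikaros cells (-0.73 ± 0.26 SE, adjusted p = 0.062). No Ikaros library reached the lowest control library, as at 11.2% of all DHS at 0 h, and from 2 h on the lines overlapped. The weakest member, at +31339 in Notch1, also varied widely, from 1.67 through 3.06 to 4.41 in control and from 2.69 through 3.36 to 3.95 in Ikaros libraries (0.31 ± 0.18 SE, adjusted p = 0.20). Over the 39 members the SD of the 12 group means ran from 0.06, at the Dtx1 DHS at -2570, to 0.48, at the Dtx1 intron DHS at +5253.

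The central 300 bp of members held TGGGAA on either strand in 14 of 39 (35.9%), beside 24.7% of all DHS. The longer RBPJ string GTGGGAA, which contains it, occurred in 6 (15.4% beside 6.24%) and TGTGGT in 11 (28.2% beside 27.3%). Of the 8 members called lower in the average, 0 held TGGGAA in that window and 3 held TGTGGT, and of the 4 called higher 2 held TGGGAA and 0 TGTGGT. The window reaches past the edges of narrow DHS and stops short of those of wide ones. Over the DHS as deposited the tally for TGGGAA was the other way, 2 of 8 called lower and 0 of 4 called higher, so no direction is read from it. Among 32851 RefSeq promoters, TGGGAA lay within the 250 bases before the start in 21.6% and TGTGGT in 14%. These are letter matches and were not tested.

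Beyond the members, promoter DHS of the other Notch pathway genes gave calls in both directions. At 0 h 12 of 31 (38.7%) passed, all higher, with a median of 0.50. Among all promoter DHS 26.0% passed at 0 h, 3387 higher and 166 lower, with a median of 0.34. They included Spen (1.36), which encodes a corepressor that binds RBPJ, 2 DHS of Rbpj itself (1.14 and 0.80), Notch2 (1.06) and Nrarp (0.84), a Notch-induced inhibitor. In the average 3 passed as higher, at Rfng (0.42), Psen2 (0.28) and Dtx2 (0.21), and 4 as lower, at the glycosyltransferase gene Lfng (-0.69), the coactivator gene Maml1 (-0.48), one Rbpj DHS (-0.35) and the Notch inhibitor gene Numb (-0.31). That Rbpj DHS is the same one that was higher by 1.14 at 0 h. The median of the 31 in the average was -0.003, beside -0.01 for all promoter DHS.

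Promoter DHS of other T-lineage genes passed at 4 of 12 (33.3%) in the average, all higher in the Ikaros line. Among all promoter DHS 27.4% passed in the average, 1548 higher and 2190 lower. Satb1, which encodes a chromatin organiser of thymocytes, had 2 (1.47 ± 0.28 and 0.96 ± 0.11 SE). Rag1 of the V(D)J recombinase had 1 (0.66 ± 0.16 SE) and Runx3 had 1 of its 2 (0.61 ± 0.20 SE). At 24 h 1 of the 12 passed, a Satb1 DHS (1.30 ± 0.24 SE, adjusted p = 0.0065), beside 0.83% of all promoter DHS. At 0 h 4 of 12 passed, 3 DHS of the 1 gene Satb1 (0.73 to 2.00, SE 0.24 to 0.63) and 1 of Runx3 (1.61 ± 0.44 SE). The 3 Satb1 DHS were weak, with levels at the 13.8th, 5.07th and 1.65th percentile of promoter DHS. At the DHS with the average difference of 1.47, the control libraries from 2 to 24 h had an SD of 1.03. Rag1 is equally a gene of pre-B cells and stands in the B-lineage list as well, where Igll1 (-0.65), Pax5 (-0.56) and Vpreb1 (-0.45) passed as lower and Rag1 and Cd22 (0.43) as higher in the average of 2 to 24 h.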

How the data were processed

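DNase-seq of 36 libraries was analysed from one table of DHS values on a log2 scale. The study's methods state that the authors mapped trimmed reads to mm10 (Bowtie2), combined HOMER peaks of a narrow and a wider size in every replicate into consensus DHS, counted reads with Bedtools, dropped low DHS, normalised by RPKM and TMM and removed noise with ARSyN before the values were deposited. The sources state no log scale: that the deposited values are log2 was inferred from their size, since base e would give more reads than a library can hold, and every difference printed rests on this base. The correction can narrow the replicate spread and tie group means together. The labels give a minimum depth but not that of each library, so no counting interval is given, and the number of libraries limits the precision. Starts of DHS may be 0-based or 1-based, a doubt of 1 bp.

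The 10 genes, the lists and the tests were chosen with earlier results of these data known. DHS were placed on GENCODE vM21, with a promoter window of 1000 bp. limma 3.58.1 in R 4.3.3 fitted 12 group means to all libraries (lmFit, contrasts, eBayes with trend), and two-sided p-values were Benjamini-Hochberg adjusted over all 52788 DHS with a threshold of 0.05. The fit was tested on simulated data. Described singly were the DHS at each gene's own promoter, the most accessible DHS of each gene and every member past the threshold in a test. Alternatives were quantile normalisation, loess removal of trends with level, width and GC content, no intensity trend, a filter on weak DHS, fits of only the groups compared, a weight per group, the replicate number as a block, other windows and leaving out replicates or single libraries. Same-numbered samples come from one batch by the labels, which is where the pairing comes from. The median correlation of deviations from group means was -0.01 for the same number (198 pairs) and 0.01 for other numbers (396 pairs), and the blocked fit changed no call. Replicates were separate batches of cultures of the same 2 lines, so p-values describe these lines.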

Additional observations from a re-analysis of the deposited data

Results flagged for a closer look

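The Hes1 DHS at -1023, upstream of the gene and within its promoter window, had a line difference that changed from 0 to 24 h by -1.16 ± 0.28 on the log2 scale (SE, limma adjusted p = 0.018). It was listed because the test of the difference between the 2 times itself passed. At 0 h all 3 Ikaros libraries were above all 3 control libraries, as at 12.4% of all DHS, and at 24 h the groups overlapped. The 0 h cells were obtained separately, which cannot be told apart from time. The part of GC content was not tested apart from level and width, and with trends in all of them removed the change was -0.19. Without Control 24h replicate 4 the change was -1.03 (adjusted p = 0.052). The call was also lost without replicate 5 or replicate 6 in all groups.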

How the results depend on the processing

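Counts of member DHS past the threshold varied with several choices, and the cause was not tested. Windows of 50 kb hold more DHS and gene bodies fewer, so their counts are out of another total. Calls over all DHS moved as well. At 0 h they fell from 6787 to 4406 with quantile normalisation and to 2743 with trends removed. They also fell with a weight per group and with only the groups compared. In the average they fell with trends removed. At 0 h (4 in the report) the count was 10 with windows of 50 kb, 2 with quantile normalisation or a weight per group, 1 with trends removed and 0 with only the groups compared. The average of 2 to 24 h (12) gave 7 with gene bodies only and 7 with trends removed. The change from 0 to 24 h (1) gave 4 with 50 kb windows and 0 with gene bodies only, quantile normalisation, trends removed or only the groups compared. Where the report gives 0, windows of 50 kb gave 1 at 12 h, 1 at 24 h, 2 for the interaction and 1 for change over time in the Ikaros line, a weight per group gave 1 at 6 h, and for change over time in the Ikaros line the filter on low DHS and the fit of only the groups compared each gave 1. With replicates or single libraries left out the counts ranged from 1 to 5 at 0 h, 4 to 14 in the average, 0 to 3 for the change, 0 to 1 for the interaction and 0 to 1 for time in the Ikaros line. In the paired fit with the replicate block the counts were 4, 12 and 1 for the first 3 results and 0 for all others, and it changed none of the 23 single values checked.

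Of 758 values of single DHS under alternatives, 684 kept their direction and side of the threshold, 63 lost the call, 1 gained one and 10 turned direction. With trends removed the Notch1 promoter at 0 h was -0.017. With quantile normalisation the average was 0.075 at the Hes1 DHS at -1023 and -0.045 at the Tcf7 promoter, neither called. Leaving out libraries moved the uncalled averages of the Gata3 promoter from -0.014 to 0.051 and of the Tcf7 promoter from -0.047 to 0.134, and the Tcf7 promoter at 0 h from -0.14 to 0.83. Of all DHS called at 0 h 60.8% were higher in the Ikaros line, and 38.7% with trends removed. At 24 h 61% were, and 50.9% with quantile normalisation.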
